A study of Mus musculus with 8 samples.

Results

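The 34 genes described here encode the machinery that takes up fatty acids, carries them into mitochondria, oxidises them, and uses ketone bodies, together with switches that set how much fat the heart burns. They were chosen by gene symbol. The symbol column of the arrays, older names included, held 33 of the 34 on 46 probes, and each gene was represented by its brightest probe. Plin5 stood under a clone name, was found through its transcript accession instead, and is given apart from the counts over the 33. All 34 passed the filter on dim probes, among 15706 features tested in the whole series.

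Hearts of 8 male mice aged 12 weeks were compared, 4 wild-type (WT) mice and 4 mice labelled as overexpressing PKR2, read here as prokineticin receptor 2, with total RNA of each heart on its own 1-colour array. The labels name neither the strain, nor the promoter that drives the overexpression, nor further alleles. The receptor's gene, Prokr2, has 1 probe, which none of the 8 arrays read well above background (-6.02 ± 0.62 in WT and -6.38 ± 0.67 in PKR2 hearts). Whether a transgene carries the stretch that this probe reads is not stated, and the labels were therefore not checked by it. Levels are log2 signal minus the array's 75th percentile, so 0 is that percentile. A level is not comparable between genes, because each probe binds with its own strength. Differences are PKR2 minus WT on the log2 scale, and mean ± SD is over n = 4 hearts unless stated.

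The arrays differed in brightness. The 75th percentile of processed signal ran from 40.9 (WT 2) to 770 (PKR2 1), and the share of spots well above background from 48.3% to 67.1% in those arrays. WT 2, WT 4 and PKR2 4 had no spot scaled up from a second, lower scan, whereas the other 5 had 619 to 1174. All PKR2 arrays lay at position 4 of their slides, and WT 1 to WT 4 at positions 4, 3, 3 and 2. Group and position therefore cannot be told apart except through WT 1. The tissue label was checked against markers. All 15 cardiomyocyte markers were well above background on all 8 arrays, and 4 hepatocyte markers (Alb, Apoa2, Ttr and Fgb) were well above background on at most 2 arrays each. Adipocyte markers were present and uneven. Of 15 listed, 13 passed the filter and all 13 had lower values in PKR2 hearts. Their mean centred level ran from -0.23 to 1.32 in WT hearts, and was -2.45 and -2.14 in PKR2 1 and PKR2 2 against 0.64 and 0.36 in PKR2 3 and PKR2 4 (difference -1.80, two-sided exact permutation p = 0.114). The cardiomyocyte level differed by 0.076 (exact permutation p = 0.543). Fewer cells of a type and less RNA per cell cannot be told apart in RNA of whole hearts.

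Adult heart muscle draws most of its energy from long-chain fatty acids. Carriers at the cell surface and in the cytosol bring them in, acyl-CoA synthetases activate them, and the carnitine shuttle moves them across the mitochondrial membranes. There each turn of the beta-oxidation spiral removes an acetyl-CoA through a dehydrogenase, a hydratase, a further dehydrogenase and a thiolase. Ketone bodies made by the liver enter the same mitochondria and yield acetyl-CoA through a short separate route. Many of these genes are known targets of the nuclear receptor PPAR alpha and of the estrogen-related receptors, which bind sites built from the half-site AGGTCA.

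Of the 34 genes, 28 have an entry in a table of RefSeq promoters (build GRCm38.p6), each window holding 250 bases before to 50 bases after a start. Cpt1b, Crat, Acaa2, Decr1, Acat1 and Angptl4 were not matched. The shared stretch of Hadha and Hadhb, subunits of the mitochondrial trifunctional protein, is shown because it lies between the genes, which are read away from it in opposite directions. The genes lie on chromosome 5 with 272 bases between them. Below is the window of Hadha, the alpha subunit, at chr5:30154931-30155230 (GRCm38.p6, minus strand, 5′ to 3′), and the capitals mark the 228 bases that also lie in the window of Hadhb on the other strand.
Hadha: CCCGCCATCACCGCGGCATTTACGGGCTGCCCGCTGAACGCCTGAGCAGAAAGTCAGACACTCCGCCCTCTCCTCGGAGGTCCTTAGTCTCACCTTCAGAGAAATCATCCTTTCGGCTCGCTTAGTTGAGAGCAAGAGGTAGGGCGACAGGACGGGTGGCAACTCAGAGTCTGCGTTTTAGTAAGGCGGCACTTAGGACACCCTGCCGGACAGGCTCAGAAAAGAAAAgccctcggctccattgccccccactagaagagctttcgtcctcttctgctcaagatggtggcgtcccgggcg
The window of Acadm, the medium-chain dehydrogenase and a textbook PPAR alpha target, lies at chr3:153944594-153944893 (GRCm38.p6, minus strand) and is shown as the 1 member window with a match, whose bases stand in capitals.
Acadm: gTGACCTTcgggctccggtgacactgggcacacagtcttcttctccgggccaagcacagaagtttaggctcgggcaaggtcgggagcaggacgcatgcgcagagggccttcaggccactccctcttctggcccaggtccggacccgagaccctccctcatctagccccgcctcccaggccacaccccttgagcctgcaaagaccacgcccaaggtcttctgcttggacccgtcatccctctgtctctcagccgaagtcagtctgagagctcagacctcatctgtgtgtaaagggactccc
The motif AAGGTCA was searched on both strands and was found in 4.72% of all 32851 windows and in 1 of the 33 member windows, where it reads TGACCTT on the strand of Acadm. The element known for PPAR receptors, AGGNCA repeated in the same direction after 1 base, was found in 0.381% of all windows and in 0 member windows, and the estrogen-related receptor element TCAAGGTCA, which contains the half-site, in 0.423% and 0. No match says only that these letters are not in these windows.

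The comparison of PKR2 with WT hearts asked whether the overexpressing hearts carried other levels of the fat-burning genes. In these arrays 32 of the 33 genes differed by less than 0.20 in size (before rounding), beside 11299 of all 15706 features. The exception was Angptl4, the secreted inhibitor of lipoprotein lipase, at -1.35. None of the 33 passed limma's adjusted p of 0.05, against 0% of all 15706 features, and the adjusted p was 1 for each. At an unadjusted p under 0.05 stood 1 of the 33 (Angptl4, lower), 3.03%, beside 2.39% of all features (1.44% lower and 0.955% higher). The groups stood apart without overlap in 0 of the 33, beside 1.6% of all features (0.904% lower and 0.7% higher). A difference above 0.5 in size was seen in 1 of the 33, beside 4.25%. Values were higher in PKR2 hearts for 13 genes and lower for 20 (39.4% higher, beside 48% of all features), with a median difference of -0.061 beside -0.0081 over all features. The split turned with the scaling: 29 of the 33 were higher after normexp background correction, 15 when the arrays were brought to a common brightness before that correction, and 17 after quantile normalization. In 32 of the 33 the difference was smaller than the SD within groups, as in 87.4% of all features. The 95% interval lay within 0.5 of 0 in 13 of the 33 (beside 4328 of the 15706 features) and within 1 in 32 (beside 13603). For the 20 genes not within 0.5, a difference of 0.5 in at least 1 direction was within the error of 4 hearts per group.

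**Figure D1:**
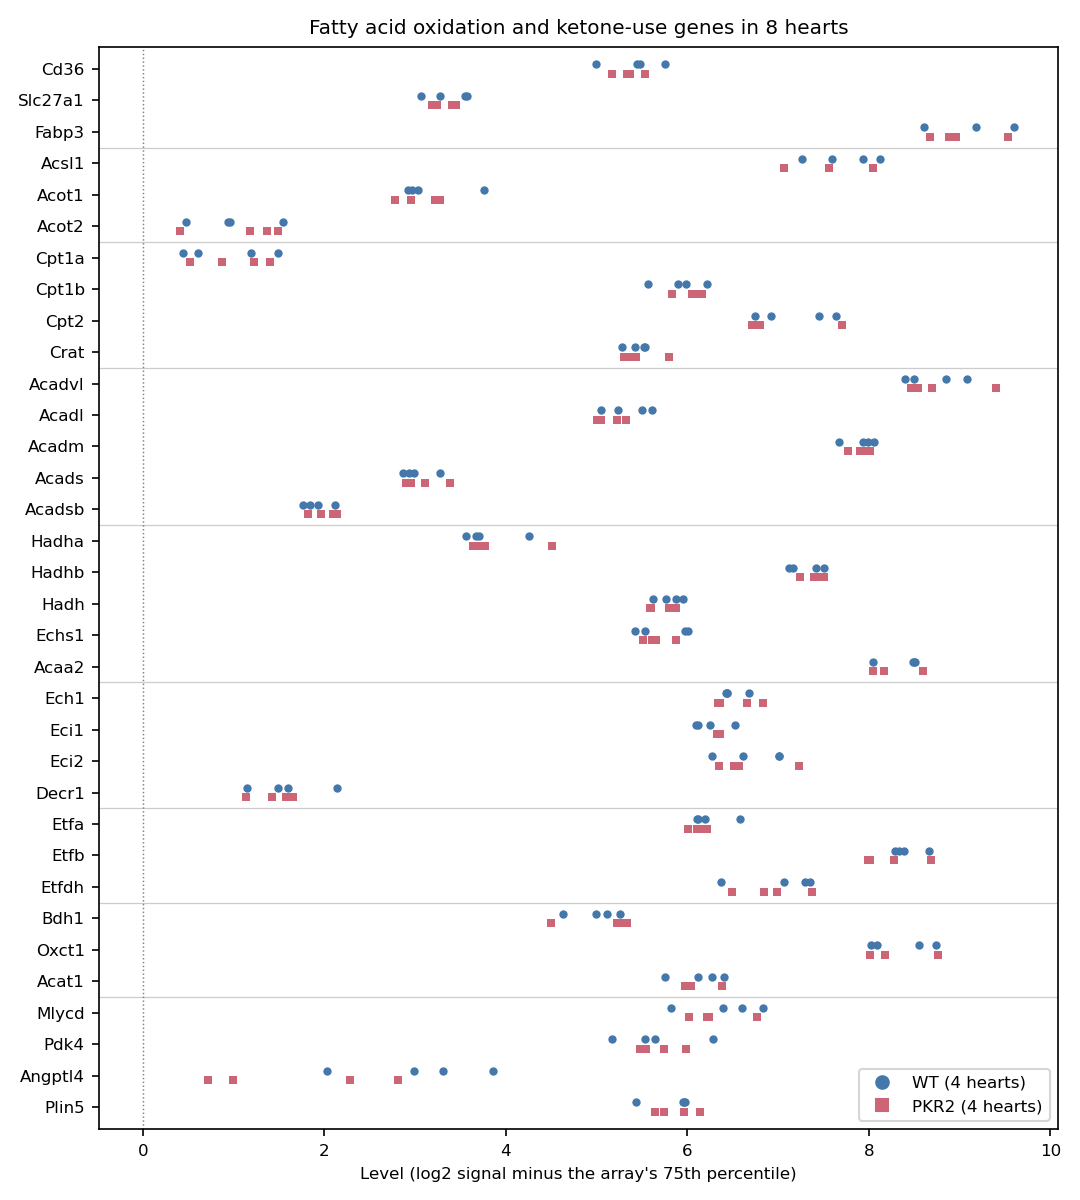
Level of each gene in each heart (log2 signal minus the array's 75th percentile), WT as circles and PKR2 as squares, with genes in the order of their roles and lines between roles. The groups overlap in all 34 genes, and Angptl4 shows the widest gap between means (3.05 against 1.70).

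**Figure D2:**
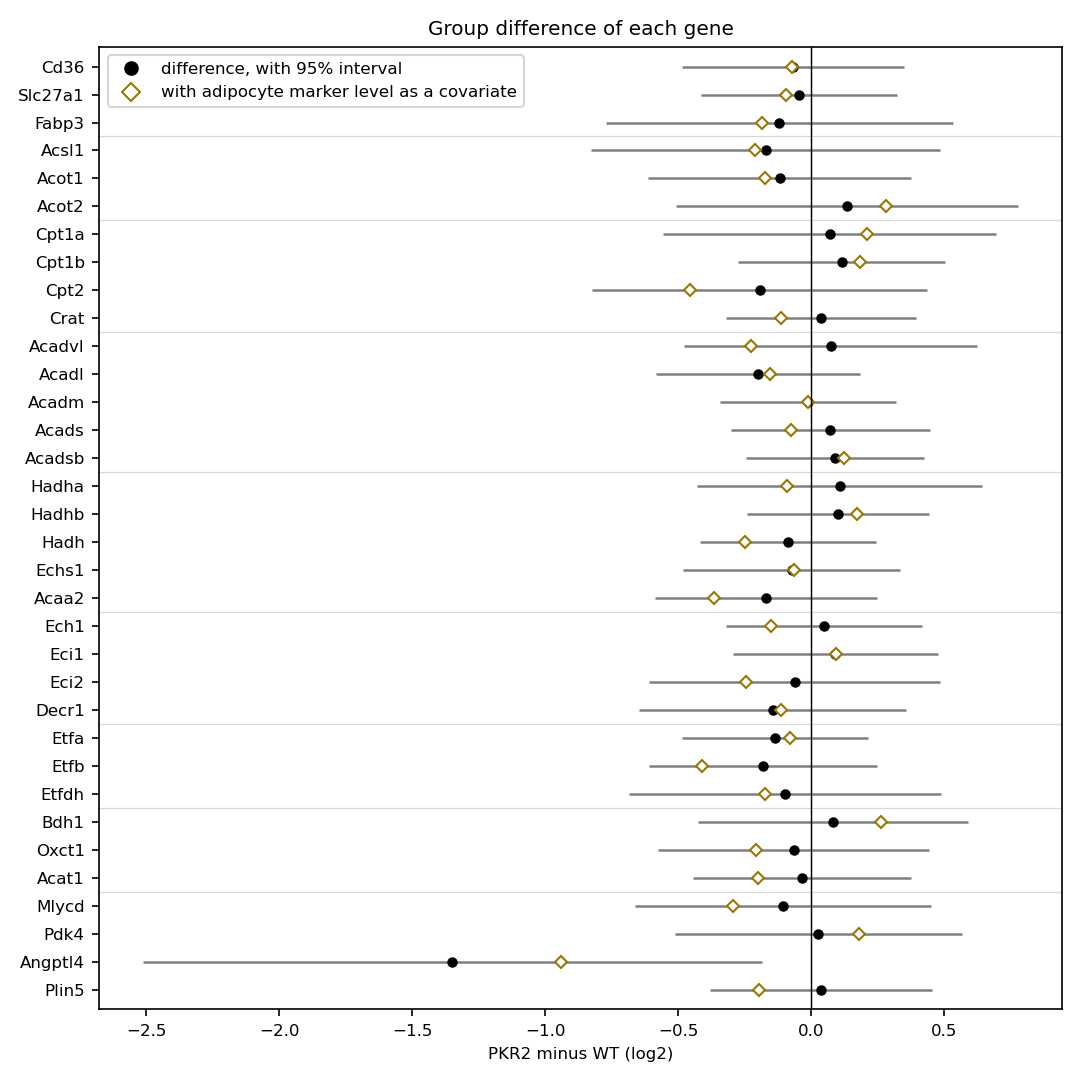
PKR2 minus WT difference of each gene on the log2 scale (filled circles) with its 95% interval (bars) over 4 hearts per group, and the difference with the adipocyte marker level as a covariate (open diamonds). The interval of Angptl4 alone leaves out 0 before adjustment for the 15706 features tested.

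The uptake genes differed by less than the spread within groups. Cd36, the fatty acid translocase of the cell surface, stood at 4.99, 5.47, 5.45 and 5.75 in WT 1 to WT 4 and 5.17, 5.54, 5.37 and 5.33 in PKR2 1 to PKR2 4. The highest and the lowest heart were both WT, and the difference was -0.067 (95% interval -0.48 to 0.35). Fabp3, the heart's cytosolic fatty acid carrier, stood at 9.60, 9.18 and 8.61 in WT 2, WT 3 and WT 4 and 8.67, 9.53, 8.96 and 8.88 in PKR2 1 to PKR2 4, the spot of WT 1 being left out for an outlier flag. WT 2 and PKR2 2 were the highest, and the difference over the 7 remaining hearts was -0.12 (95% interval -0.77 to 0.53). Slc27a1, a transport protein with acyl-CoA synthetase activity, was 3.37 ± 0.24 in WT and 3.32 ± 0.12 in PKR2 hearts (difference -0.045).

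Activation showed wider spreads than differences. Acsl1, the main long-chain acyl-CoA synthetase of heart, was 7.73 ± 0.38 in WT (n = 4) and 7.56 ± 0.49 in PKR2 hearts (n = 3, PKR2 4 left out for an outlier flag), giving -0.17 for PKR2 minus WT. Acot1 and Acot2 encode a cytosolic and a mitochondrial acyl-CoA thioesterase, which split acyl-CoA back into free acid. These neighbours on chromosome 12 are near-identical in sequence, so their probes may each read part of the other's RNA. Acot1 stood at 2.97, 2.92, 3.04 and 3.76 in WT 1 to WT 4 and 3.27, 2.95, 2.77 and 3.22 in PKR2 1 to PKR2 4. WT 4 was far above the other WT hearts, and the difference was -0.12 (95% interval -0.61 to 0.38). Acot2 stood at 1.54, 0.47, 0.94 and 0.96 in WT 1 to WT 4 and 1.49, 0.41, 1.18 and 1.37 in PKR2 1 to PKR2 4. WT 1 and PKR2 1 were the highest of their groups and WT 2 and PKR2 2 the lowest, and the difference was 0.14 (95% interval -0.51 to 0.78).

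The carnitine shuttle moves the acyl groups inward. Cpt1a, the liver-type outer membrane transferase that fetal heart also uses, stood at 1.19, 0.60, 0.45 and 1.49 in WT 1 to WT 4 and 1.40, 0.52, 0.87 and 1.22 in PKR2 1 to PKR2 4. The hearts of each group spread over about the whole range, and the difference was 0.070 (95% interval -0.55 to 0.69). Cpt1b, the muscle-type transferase and the step that malonyl-CoA inhibits in adult heart, stood at 5.98, 5.57, 5.90 and 6.22 in WT 1 to WT 4 and 6.09, 5.83, 6.06 and 6.16 in PKR2 1 to PKR2 4. WT 2 was lowest and WT 4 highest, with all PKR2 hearts between them, and the difference was 0.12 (95% interval -0.27 to 0.51). Cpt2, the inner membrane transferase, stood at 6.75, 7.64, 7.45 and 6.93 in WT 1 to WT 4 and 6.71, 7.71, 6.81 and 6.77 in PKR2 1 to PKR2 4. PKR2 2 stood apart from the other 3 PKR2 hearts and close to WT 2, and the difference was -0.19 (95% interval -0.82 to 0.44). Crat, the acetyltransferase that buffers acetyl-CoA as acetylcarnitine, was 5.44 ± 0.11 in WT and 5.47 ± 0.22 in PKR2 hearts (difference 0.037). No gene of the shuttle passed the test.

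The acyl-CoA dehydrogenases open each turn of the spiral and are named for chain length. Acadl, the long-chain enzyme of mouse heart, had the smallest p after Angptl4 and stood at 5.23, 5.05, 5.61 and 5.50 in WT 1 to WT 4 and 5.05, 5.0, 5.22 and 5.32 in PKR2 1 to PKR2 4. All PKR2 hearts lay within the range of the WT hearts or just below it, and the difference was -0.20 (95% interval -0.58 to 0.18), with a two-sided exact permutation p of 0.2. Acadm stood at 8.06, 7.67, 7.94 and 8.0 in WT 1 to WT 4 and 8.01, 7.77, 7.90 and 7.93 in PKR2 1 to PKR2 4. WT 2 and PKR2 2 were the lowest of their groups, and the difference was -0.011 (95% interval -0.34 to 0.32), the narrowest interval of all 34 genes. The very-long-chain enzyme Acadvl was 8.70 ± 0.32 in WT and 8.78 ± 0.43 in PKR2 hearts (difference 0.074). The short-chain enzyme Acads differed by 0.073 and Acadsb, which acts on short branched chains, by 0.090.

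The later steps gave the same picture of small differences. Hadha stood at 4.26, 3.67, 3.56 and 3.70 in WT 1 to WT 4 and 4.51, 3.77, 3.69 and 3.64 in PKR2 1 to PKR2 4. WT 1 and PKR2 1 were well above the other hearts of their groups, and the difference was 0.11 (95% interval -0.43 to 0.65). Hadhb, the beta subunit that carries the thiolase, is read in the direction opposite to Hadha. Its level stood at 7.51, 7.16, 7.12 and 7.42 in WT 1 to WT 4 and 7.50, 7.24, 7.39 and 7.48 in PKR2 1 to PKR2 4. Again WT 1 and PKR2 1 were the highest of their groups, over a narrower range, and the difference was 0.10 (95% interval -0.24 to 0.44). Acaa2, the thiolase for medium and shorter chains, stood at 8.04, 8.51, 8.49 and 8.49 in WT 1 to WT 4 and 8.16, 8.60, 8.05 and 8.05 in PKR2 1 to PKR2 4. WT 1 lay apart from 3 nearly equal WT hearts, PKR2 2 was the highest of its group, and the difference was -0.17 (95% interval -0.59 to 0.25). Hadh, the dehydrogenase for short and medium chains, differed by -0.087, and the hydratase Echs1 by -0.072.

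Unsaturated fatty acids need helpers that move or reduce their double bonds. The dienoyl-CoA isomerase Ech1 was 6.50 ± 0.12 in WT and 6.55 ± 0.24 in PKR2 hearts (difference 0.050). The enoyl-CoA isomerase Eci1 was 6.25 ± 0.20 in WT (n = 4) and 6.34 ± 0.019 in PKR2 hearts (n = 3, PKR2 2 left out for an outlier flag), giving 0.091. Its relative Eci2 differed by -0.061, and the dienoyl-CoA reductase Decr1 by -0.14.

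Electrons from the dehydrogenases pass through the electron transfer flavoprotein, whose subunits are Etfa and Etfb, to its membrane oxidoreductase Etfdh. Etfb stood at 8.33, 8.67, 8.39 and 8.29 in WT 1 to WT 4 and 8.28, 8.68, 7.99 and 8.01 in PKR2 1 to PKR2 4. WT 2 and PKR2 2 were the highest and PKR2 3 and PKR2 4 the lowest of all hearts, and the difference was -0.18 (95% interval -0.61 to 0.25). Etfa stood at 6.12, 6.11, 6.19 and 6.58 in WT 1 to WT 4 and 6.0, 6.13, 6.10 and 6.21 in PKR2 1 to PKR2 4. WT 4 was above the rest and the other 7 hearts lay within a narrow band, with a difference of -0.14 (95% interval -0.49 to 0.21). Etfdh was 7.02 ± 0.45 in WT and 6.92 ± 0.37 in PKR2 hearts (difference -0.097). All 3 had lower means in PKR2 hearts, but higher ones after normexp background correction (0.11, 0.099 and 0.046 for Etfa, Etfb and Etfdh). With arrays brought to a common brightness first they were lower again (-0.092, -0.10 and -0.15), and none passed the test.

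Ketone use rests on 3 genes here. Bdh1, the dehydrogenase that turns beta-hydroxybutyrate into acetoacetate and is known to rise in failing heart, stood at 4.63, 4.99, 5.25 and 5.12 in WT 1 to WT 4 and 4.49, 5.23, 5.34 and 5.27 in PKR2 1 to PKR2 4. WT 1 and PKR2 1 were the lowest of their groups, and the difference was 0.084 (95% interval -0.42 to 0.59). A second, dimmer Bdh1 probe, well above background on all 8 arrays, differed by 0.56. The mean over the Bdh1 probes gave 0.32. Oxct1, the CoA transferase that commits ketone bodies to oxidation, stood at 8.09, 8.74, 8.56 and 8.02 in WT 1 to WT 4 and 8.02, 8.76, 8.18 and 8.18 in PKR2 1 to PKR2 4. WT 2 and PKR2 2 were almost equal and the highest of their groups, and the difference was -0.065 (95% interval -0.58 to 0.45). Acat1, the thiolase that splits acetoacetyl-CoA, was 6.14 ± 0.28 in WT and 6.10 ± 0.18 in PKR2 hearts (difference -0.033).

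The fuel switches and the droplet coat protein held the 1 wide difference. Pdk4, the kinase that shuts pyruvate dehydrogenase and so favours fat over glucose, stood at 5.53, 5.64, 5.17 and 6.29 in WT 1 to WT 4 and 5.74, 5.54, 5.47 and 5.98 in PKR2 1 to PKR2 4. WT 3 and WT 4 were the lowest and the highest of all hearts, and the difference was 0.028 (95% interval -0.51 to 0.57). Mlycd, which removes malonyl-CoA and thereby relieves Cpt1b, stood at 5.82, 6.61, 6.84 and 6.39 in WT 1 to WT 4 and 6.02, 6.77, 6.21 and 6.24 in PKR2 1 to PKR2 4. WT 1 and PKR2 1 were the lowest of their groups, and the difference was -0.10 (95% interval -0.66 to 0.45). Plin5, which ties lipid droplets to mitochondria in oxidative tissue, stood at 5.43, 5.97, 5.98 and 5.96 in WT 1 to WT 4 and 5.96, 6.14, 5.64 and 5.74 in PKR2 1 to PKR2 4. WT 1 lay below the other 3 WT hearts, and the difference was 0.037 (95% interval -0.38 to 0.46).

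Angptl4 is made by heart muscle, vessel cells and adipocytes, and is known as a target of PPAR receptors. Its 1 probe lies on chromosome 17, 33381815 to 33381874 (mm8, minus strand), and was well above background on all 8 arrays. It stood at 3.86, 2.99, 2.03 and 3.31 in WT 1 to WT 4 and 2.28, 0.71, 0.99 and 2.81 in PKR2 1 to PKR2 4. The WT range overlapped with PKR2 1 and PKR2 4, while PKR2 2 and PKR2 3 lay below every WT heart. The means were 3.05 ± 0.77 in WT and 1.70 ± 1.01 in PKR2 hearts, so PKR2 minus WT was -1.35 (95% interval -2.51 to -0.18), a ratio of 0.393. Limma's unadjusted p was 0.0275, its adjusted p 1, and the two-sided exact permutation p 0.114 (n = 4 per group). Of all features, 0.516% had a difference larger in size. In WT hearts Angptl4 and the adipocyte markers were both highest in WT 1 and both lowest in WT 3. In PKR2 hearts both were low in PKR2 2, whereas PKR2 1 had the lowest marker level with the second-highest Angptl4 level, and PKR2 3 the highest marker level with a low Angptl4 level. With the adipocyte marker level as a covariate Angptl4 differed by -0.94 (SE 0.67), and without PKR2 1 and PKR2 2 by -1.15. Within the slides that held both groups it was -1.04 on slide 5 and -0.49 on slide 6. The part of fat tissue in this difference was not tested beyond those values. Leaving out 1 heart gave -1.72 to -1.02, and the unadjusted p rose above 0.05 without WT 1, WT 4, PKR2 2 or PKR2 3 (from 0.0685 to 0.0781).

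**Figure D3:**
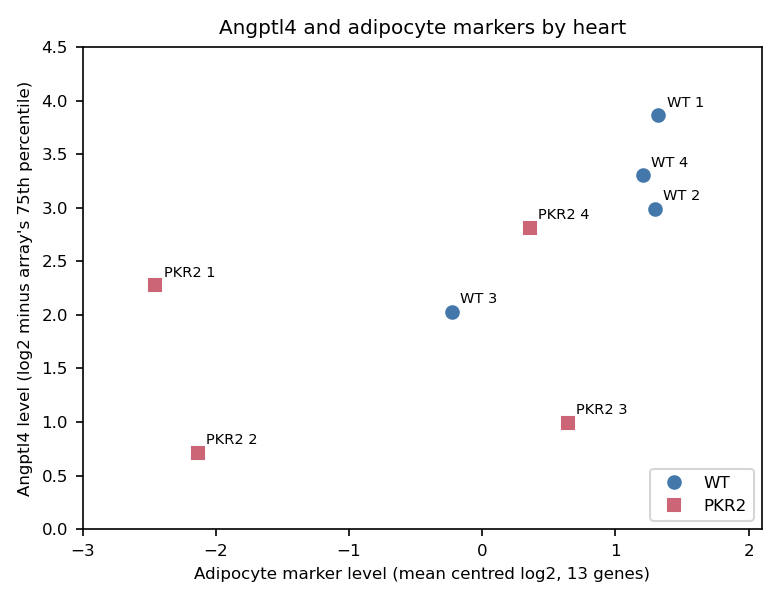
Angptl4 level (log2 minus the array's 75th percentile) against the mean centred level of 13 adipocyte markers (log2) in each heart, WT as circles and PKR2 as squares. PKR2 1 and PKR2 2 lie at the left (-2.45 and -2.14), and the lowest Angptl4 levels are those of PKR2 2 and PKR2 3 (0.71 and 0.99).

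Single hearts of one group often resembled single hearts of the other. Among the 30 genes measured on all arrays, WT 1 and PKR2 1 were each the highest of their group in 8 (26.7%, beside 17.8% of all features), among them Acot2, Acadm, Acads, Hadha, Hadhb and Echs1. In 6 others WT 2 and PKR2 2 were both the highest (20%, beside 14.1%), namely Cpt2, Acadvl, Acaa2, Eci2, Etfb and Oxct1. WT 1 and PKR2 1 were both the lowest in Cd36, Cpt2, Eci2, Etfdh, Bdh1 and Mlycd (20%, beside 24.9%), and WT 2 and PKR2 2 in Acot2, Cpt1b, Acadl, Acadm, Acadsb, Echs1 and Decr1 (23.3%, beside 13.7%). Pairs with unlike numbers shared extremes too. WT 4 and PKR2 1 were both the highest in 5 genes (16.7%, beside 7.64%), and WT 3 and PKR2 2 in 4 (13.3%, beside 14.1%). These shares are descriptions, and heart numbers shared between groups are only names. WT 1, PKR2 1, WT 2 and PKR2 2 lay on 4 different slides, so they share no slide by pairs.

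**Figure D4:**
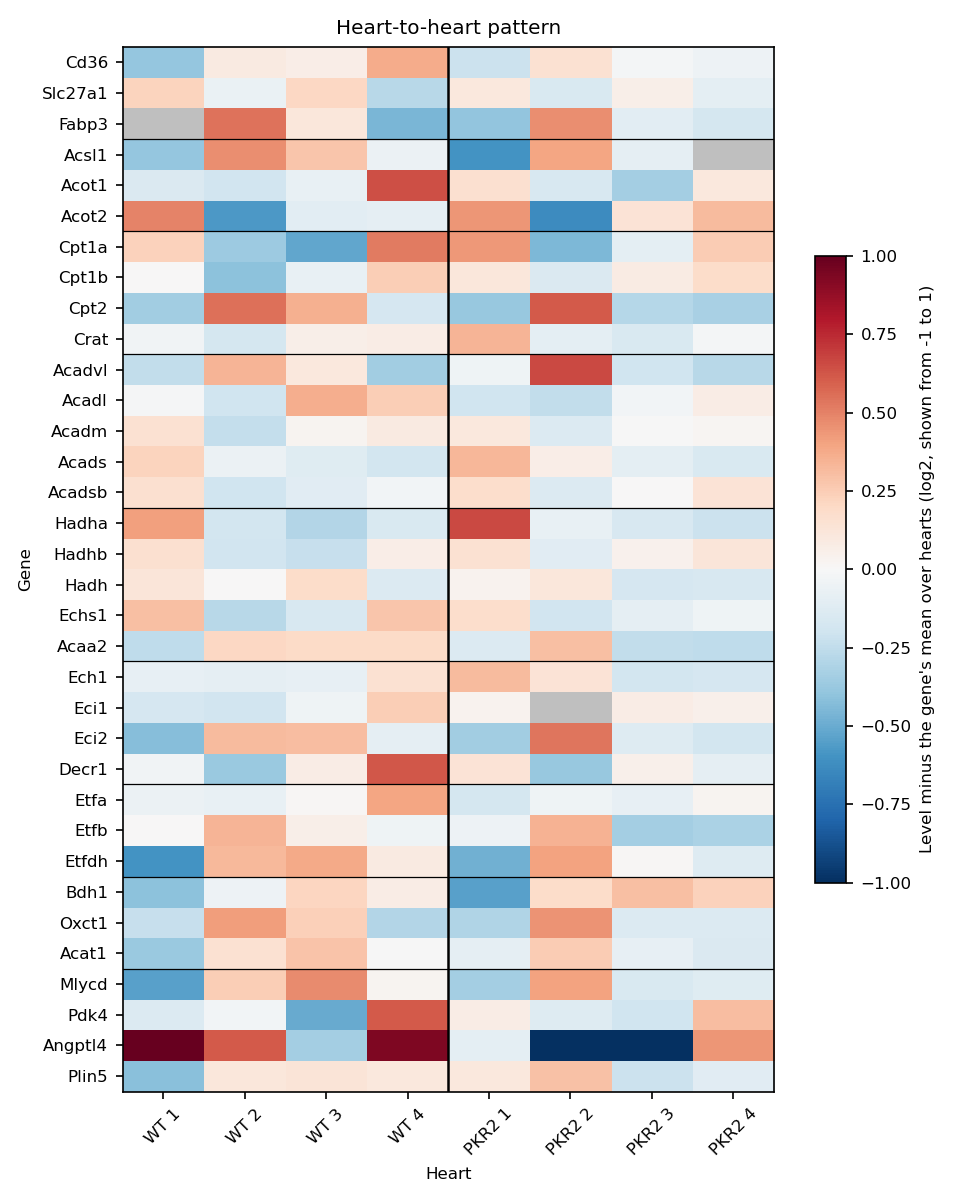
Level of each gene in each heart minus the gene's mean over hearts (log2, colour from -1 to 1, grey where a spot was left out), with WT hearts at the left. WT 1 and PKR2 1 are both the highest of their group in 8 genes and both the lowest in 6, and Angptl4 shows a wide difference between the sides (-1.35).

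Some genes showed unlike patterns over hearts with different probes. Of the 10 genes with several tested probes, the sign of the group difference disagreed between probes in 5 (Oxct1, Slc27a1, Etfdh, Decr1 and Acsl1). That share was not computed over all genes of the array, so it is not read as a trait of these genes. For Etfdh the reported probe (chromosome 3, 79689820 to 79689879, mm8) lies downstream of its second probe (79701861 to 79701920), on the minus strand. Relative to each probe's own mean, WT 1 and PKR2 1 stood at -0.60 and -0.48 with the reported probe and at 0.37 and 0.58 with the other. WT 2 and PKR2 2 stood at 0.33 and 0.40 against -0.56 and -0.48. For Etfdh these hearts were thus turned over between probes. Acsl1 showed it with the probe farthest upstream. WT 1 and PKR2 1 stood at -0.39 and -0.59 with the reported probe and at 0.52 and 0.32 with that one. With the remaining Acsl1 probe they stood at 0.33 and -0.052, so PKR2 1 was not turned over. Other probe pairs ran alike in some hearts and apart in others. For Cpt1b, WT 2 and PKR2 2 stood at -0.41 and -0.15 with the reported probe and at -0.49 and -0.25 with the other. WT 1 and PKR2 1 stood at 0.0068 and 0.12 against 0.37 and 0.44. For Decr1, WT 2 and PKR2 2 stood at -0.37 and -0.38 against -0.55 and -0.65. WT 1 and PKR2 4 stood at -0.037 and -0.094 against 0.41 and 0.39. Over 4055 genes with probes at different places of the same transcript, the median of the downstream minus the upstream centred level was -0.14 in WT 1 and -0.20 in PKR2 1. It was 0.079, 0.11 and 0.14 in WT 2 to WT 4, and 0.057, -0.0095 and -0.047 in PKR2 2 to PKR2 4. The groups differed in it by -0.099 (two-sided exact permutation p = 0.314). Its part in the values of single genes was not tested.

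**Figure D5:**
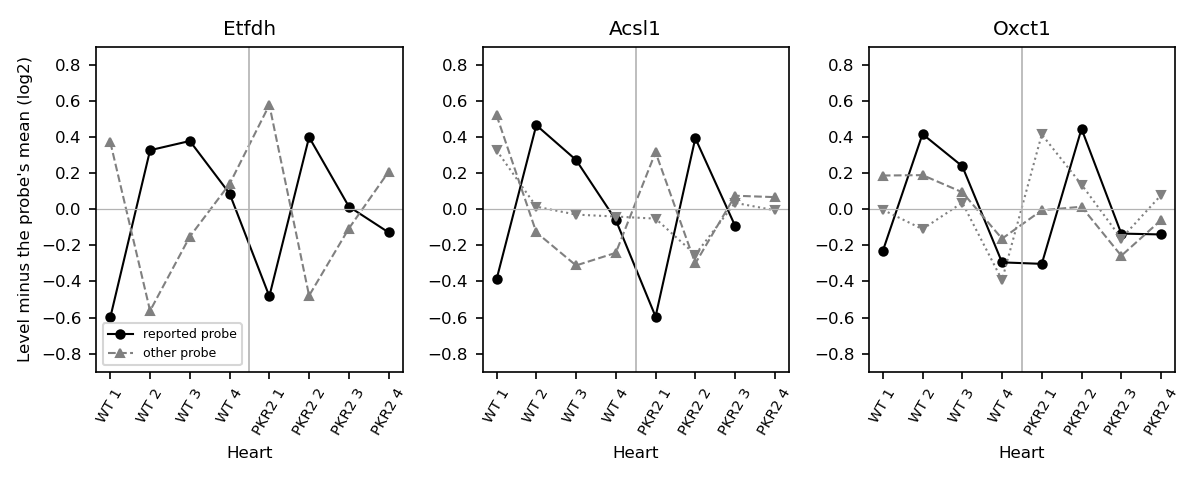
Level of each tested probe of Etfdh, Acsl1 and Oxct1 in each heart minus that probe's mean (log2), the reported probe in black and the others in grey, with WT hearts to the left of the line. For Etfdh the black and grey lines lie on opposite sides of 0 (-0.60 against 0.37 in WT 1) in every heart but WT 4 (0.087 against 0.14).

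Other genes around fat oxidation were read from lists by role, and none of the 77 tested genes passed limma's adjusted p of 0.05. At an unadjusted p under 0.05 stood 7 of the 77, beside 376 of all 15706 features (2.39%). The lists were chosen with earlier results of these data known, so their counts are descriptions. Values were higher in PKR2 hearts for 21 and lower for 56 (median -0.087), beside 48% higher among all features. Of 17 peroxisomal genes 16 had lower values (median -0.12), but 8 after normexp background correction, 13 with that correction on commonly scaled arrays and 12 in the authors' values. Hacl1, which shortens 3-methyl-branched acids, stood at -2.09, -1.37, -1.15 and -2.16 in WT 1 to WT 4 and -3.25, -2.23, -2.19 and -2.26 in PKR2 1 to PKR2 4. The groups were apart by a narrow gap, and the difference was -0.79 (SE 0.31) with an exact permutation p of 0.0286, the smallest that 4 against 4 allows. In the authors' values it was -0.40, and within slides 5 and 6 it was -1.04 and -0.10. Groups apart in this direction were seen in 0.904% of all features. The thioesterase Acot4, well above background on 7 arrays, differed by -0.47 (SE 0.22) and by -0.053 with the adipocyte marker level as a covariate. It differed by -0.14 in the authors' values, and by 0.14 and -0.38 within slides 5 and 6.

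Of the 17 genes of lipolysis, uptake and storage 14 had lower values (median -0.17), and 12 to 15 did under the other scalings. Pnpla2, the adipose triglyceride lipase that opens droplets in heart as well, stood at 6.07, 6.25, 6.23 and 6.11 in WT 1 to WT 4 and 5.24, 5.72, 5.85 and 5.67 in PKR2 1 to PKR2 4. All PKR2 hearts lay below all WT hearts, and the difference was -0.55 (SE 0.17), with an exact permutation p of 0.0286 and a limma adjusted p of 1. It was -0.40 with the adipocyte marker level as a covariate, -0.40 without PKR2 1 and PKR2 2, and -0.38 and -0.44 within slides 5 and 6. Mgll, the monoglyceride lipase, named after its values were seen, did not overlap between groups either, and differed by -0.26 (SE 0.13), or by -0.015 after normexp background correction, -0.21 with that correction on commonly scaled arrays and -0.20 in the authors' values. Such a lower, non-overlapping group was seen in 0.904% of all features. The very-long-chain synthetase Slc27a2, well above background on 7 arrays, differed by -2.94 (SE 0.99). Its level was lowest in PKR2 1 and PKR2 2 (-3.58 and -5.80), and its difference was -0.76 with the covariate. The difference was -1.35 in the authors' values, -1.58 with normexp, and 0.69 and -1.85 within slides 5 and 6.

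The other mitochondrial genes of the pathway (14 tested, 9 lower) had a median of -0.090. Mcee, an epimerase on the route from propionyl-CoA to succinyl-CoA, differed by -0.54 (SE 0.22) and by -0.58 with the covariate, and Mmut, the mutase after it, by -0.22 (SE 0.16) or, after normexp background correction, 0.025. That correction left 4 of the 14 lower, and 10 on commonly scaled arrays. In the next list it left 3 of 9 lower, and 5 on commonly scaled arrays. In this list of malonyl-CoA synthesis, AMP kinase, pyruvate dehydrogenase kinases and uncoupling proteins (9 tested, 6 lower), Prkaa2, the main catalytic AMP kinase subunit of heart, stood at 2.17, 2.09, 2.38 and 2.49 in WT 1 to WT 4 and 2.56, 2.49, 2.80 and 2.68 in PKR2 1 to PKR2 4. The highest WT heart and the lowest PKR2 heart were level, and the difference was 0.35 (SE 0.15). The carboxylase Acaca differed by -1.31 (SE 0.72), was lowest in PKR2 1 and PKR2 2, and differed by 0.29 with the covariate and by 1.15 and -0.45 within slides 5 and 6. Of the ketone synthesis and transport genes (9 tested, 6 lower), Aacs, which returns acetoacetate to lipid synthesis, differed by -1.20 (SE 0.47), by -0.20 with the covariate, and by 0.42 and -0.45 within slides 5 and 6. Acss2, a cytosolic acetyl-CoA synthetase, differed by -0.33 (SE 0.26), by 0.045 with the covariate, and by 0.35 and -0.60 within slides 5 and 6. Leaving out 1 heart gave -0.54 to -0.13. The PPAR and estrogen-related receptor regulators (11 tested, 6 higher) had a median of 0.0097, and 2 to 7 were higher under the other scalings, with Ppard, well above background on 4 arrays, at 0.63 (SE 0.33), and Rxra at -0.26 (SE 0.23). For Ppard the other scalings gave -0.12 with normexp, 0.20 with normexp on commonly scaled arrays, 0.059 in the authors' values and 0.55 with quantile normalization. Leaving out 1 heart gave 0.34 to 0.87 for Ppard and -0.40 to -0.14 for Rxra, which stood at -0.036 with normexp and at -0.69 and -0.082 within slides 5 and 6.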

How the data were processed

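Total RNA of 8 hearts was labelled with Cy3 (100 ng per labelling, per the labels' protocols), 1 array per mouse. Per the file headers, Agilent Feature Extraction 9.5.1.1 subtracted background and removed spatial trends within arrays; the deposited scanner values are linear spot intensity without normalization between arrays, and probe positions refer to mm8. The authors' deposited values hold linear intensity of unstated normalization between arrays (column medians 139 to 144; log2 values over bright probes correlated with the scanner's at r of 0.991 to 0.998 across probes) and served as an alternative.

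Here log2 processed signal of unflagged spots was averaged per probe and the 75th percentile of the array was subtracted. A probe was tested where well above background on at least 3 of 4 arrays of a group and unflagged on at least 3 per group. Of the 41174 probes, 24333 were named through transcript accessions in RefSeq (GRCm38.p6, for names alone), 8722 through symbols or synonyms. This gave 15706 features, tested with limma 3.58.1 in R 4.3.3 (package data.table, version 1.17.8), no covariate, with Benjamini-Hochberg adjustment over all of them and exact permutation tests over 70 relabelings (smallest p 0.0286). The labels do not say whether mice were littermates. All 34 genes are named; the values of every heart are given for the 8 of smallest p and 15 set by role, and of each further list the 2 genes of smallest p are named with their differences. The members and lists were chosen with earlier results of these data known. Alternatives were normexp (offset 50), quantile and median scaling, the authors' values, looser and stricter filters, the mean over probes, slide, position and the adipocyte level in the fit, another variance model, array weights and leaving out each heart. Added after seeing the data were normexp on commonly scaled arrays, scan range as a covariate and leaving out PKR2 1 with PKR2 2.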

Additional observations from a re-analysis of the deposited data

Results flagged for a closer look

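In 8 of 65 groups of 4 hearts, 1 heart lay farther from the rest of its group than Dixon's 95% critical value allows; chance flags about 1 in 20 groups. In WT hearts these were Acot1 in WT 4 (3.76, others 2.92 to 3.04), Acaa2 in WT 1 (8.04, others 8.49 to 8.51), Ech1 in WT 4 (6.68, others 6.43 to 6.44) and Plin5 in WT 1 (5.43, others 5.96 to 5.98). In PKR2 hearts they were Cpt2 in PKR2 2 (7.71, others 6.71 to 6.81), Acat1 in PKR2 2 (6.38, others 5.98 to 6.04), Hadha in PKR2 1 (4.51, others 3.64 to 3.77) and Bdh1 in PKR2 1 (4.49, others 5.23 to 5.34). Genes on the same array share its RNA, so these groups are not independent. The share of flagged groups over all features was not computed, so the count is not read as a trait of these genes.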

How the results depend on the processing

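No gene of the 33 passed the threshold under any of the 21 planned or 3 added alternatives. Over all features the count was 0 in the reported fit and 1 with probes well above background on all 8 arrays, with slide as a random block, with array position as a covariate, with a trended robust variance and with normexp on commonly scaled arrays; leaving out 1 heart gave 0 to 1 (1 without PKR2 3). The median of the 33 differences, -0.061 in the reported fit, moved to 0.18 with normexp (29 of 33 higher), but to -0.0093 (15 of 33) with normexp on commonly scaled arrays. It was 0.0096 with quantile normalization, -0.17 under a fixed slide block, where slides 5 and 6 alone hold both groups, and 0.051 with array position, which sets the PKR2 hearts against WT 1 alone. Leaving out 1 heart gave -0.084 to 0.0084, the highest without WT 4. The sign of a list median this close to 0 therefore has no reading, and the causes of these moves were not tested. Angptl4 was lower in all 24 alternatives (-2.16 to -0.77). Acadl kept its sign in all 24 as well, and the other 32 genes turned in 1 to 8 of the 22 to 24 refits that measured them. No paired analysis was possible because no label links a WT mouse to a PKR2 mouse. The slides shared by both groups were used as a block instead. With 4 hearts per group the number of arrays limits the precision.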

Other observations

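Downstream minus upstream centred levels were also computed for other genes with a pair of probes on 1 transcript. For Cpt1b (probes 433 bases apart) this was -0.36 and -0.33 in WT 1 and PKR2 1 against 0.078 and 0.11 in WT 2 and PKR2 2. For Decr1 (451 bases apart) it was -0.45 and -0.35 against 0.18 and 0.27, but also -0.49 in PKR2 4 and 0.51 in WT 4. Cpt1a (745 bases apart) did not follow them, with -0.048 and -0.11 against -0.20 and -0.30, and 0.69 in WT 4.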
